A study of Homo sapiens with 20 samples.

Results

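Interferon-stimulated genes are the genes that a cell turns on when interferon reaches its surface. The 35 genes described here were chosen by symbol as antiviral effectors, interferon signalling factors and parts of the ISG15 conjugation system, and all 35 were found among the 26038 genes of the count table. The choice was made with earlier results of these data known, so shares of changed genes among them may partly reflect it. They were measured by RNA-seq of polyA RNA from MHCC-97H, a line of human liver cancer cells, with 5 libraries in each of 4 groups. R-37 and R-47 were wild-type cells kept in a water bath for 15 minutes at 37 °C or at 47 °C and then grown for 24 hours. NC, labelled wild type, and NFS1, labelled as a knockdown of NFS1 (the enzyme that frees sulfur from cysteine for iron-sulfur clusters) made with shRNA (the title of the series spells the gene NSF1), both received the 47 °C bath and the 24 hours of growth. The second experiment therefore had no unheated group, and the knockdown comparison was made within heated cells. The sources used here give neither the shRNA sequence, nor the control construct of NC, nor the number of cell clones. They also do not say whether replicates were grown apart, so p-values measure only the spread between these libraries, which may be technical. The series asked, in 2 experiments, how sublethal heating (a model of incomplete microwave ablation of a liver tumour) and the targeted gene act on metastasis and on resistance to ferroptosis.

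Type I and type III interferons bind receptors that work through the kinases JAK1 and TYK2, and these phosphorylate STAT proteins, among them STAT2, which joins IRF9 in the complex ISGF3. ISGF3 binds the interferon-stimulated response element in the promoters of its targets, while interferon gamma acts at gamma-activated sites and raises IRF1. The products sense viral RNA, degrade or sequester it, or are attached to other proteins as ISG15, and many tumour lines keep a basal level of these genes without added interferon.

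In the libraries labelled as NFS1 knockdown, the NFS1 transcript itself stood at 66.1 ± 3.01 CPM (counts scaled to library size, SD, n = 5), against 72.5 ± 1.86 in NC, a log2 fold change of -0.11 (SE 0.050, edgeR adjusted p = 0.11) that did not pass the test. The name "NFS1 libraries" below therefore refers to the label. In R-37 and R-47 the NFS1 transcript stood at 90.1 ± 3.86 and 92.1 ± 5.36 CPM (SD, n = 5). It was lower in NC than in R-47, both labelled wild type, at -0.33 (SE 0.048, edgeR adjusted p = 1.6e-06). Depth was 32219946 to 39689939 counts per library. Keratins KRT8 and KRT18 were abundant in every group, and EPCAM stayed below 1 FPKM (fragments scaled by gene length and depth, a level per length). The 12 hepatocyte markers moved in both directions: their sum was 32.1 to 36.8 FPKM in R-37, 26.4 to 27.9 in R-47, 50.7 to 53.3 in NC and 47.3 to 50.3 in NFS1, ALB going from a mean of 5.52 in R-37 to 0.400 in NC and HNF4A from 5.52 to 14.0. Leukocyte markers summed to 3.55 to 4.53 FPKM in R-37, 7.63 to 9.09 in R-47, 3.21 to 3.74 in NC and 3.66 to 4.73 in NFS1 over 10 measured genes, of which 8 averaged under 1 FPKM in R-47, with PTPRC (CD45) at or below 0.0153 FPKM on average. Libraries NFS1 2 and 3 stood apart with 248 and 244 CPM of the heat shock gene HSPA6, against 22.3 to 82.6 in the other NFS1 libraries, 5.41 to 38.9 in NC and at most 1.49 in R-37 and R-47. Libraries of every group deviated along transcript GC content in both directions, with Spearman's rho across 14500 genes from -0.69 (NFS1 4) and -0.63 (R-37 5) to 0.55 (NFS1 1) and 0.56 (R-37 1).

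Promoter sequences are shown for 6 genes on which the results below turn, as the 250 bases upstream of an annotated start (RefSeq, GRCh38.p14). Capitals mark matches to GAAA, any 2 bases and GAAA again, the core of the interferon-stimulated response element (ISRE), or to TTCNNNGAA, the core of the gamma-activated site, searched on both strands with overlaps allowed. ISG15 (chr1:1013247-1013496, plus strand), IFIT1 (chr10:89392373-89392622, plus strand), IFIT3 (chr10:89327747-89327996, plus strand), IFI27 (chr14:94110486-94110735, plus strand), IFI44L (chr1:78620198-78620447, plus strand) and UBE2L6 (chr11:57567936-57568185, minus strand) are given 5′ to 3′ on their own strand.
ISG15: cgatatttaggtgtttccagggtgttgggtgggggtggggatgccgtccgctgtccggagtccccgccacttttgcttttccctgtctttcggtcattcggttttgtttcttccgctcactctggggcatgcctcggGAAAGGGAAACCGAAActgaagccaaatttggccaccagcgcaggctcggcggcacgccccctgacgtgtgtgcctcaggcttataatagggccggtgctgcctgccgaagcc
IFIT1: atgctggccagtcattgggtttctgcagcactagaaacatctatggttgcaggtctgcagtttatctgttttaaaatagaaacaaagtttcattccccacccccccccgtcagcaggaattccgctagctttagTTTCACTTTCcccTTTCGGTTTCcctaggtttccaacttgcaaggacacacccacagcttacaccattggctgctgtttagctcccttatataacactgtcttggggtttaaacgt
IFIT3: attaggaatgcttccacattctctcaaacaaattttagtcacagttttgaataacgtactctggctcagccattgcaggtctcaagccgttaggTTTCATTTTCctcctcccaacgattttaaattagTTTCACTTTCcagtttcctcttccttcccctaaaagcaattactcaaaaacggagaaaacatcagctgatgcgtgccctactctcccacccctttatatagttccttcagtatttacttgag
IFI27: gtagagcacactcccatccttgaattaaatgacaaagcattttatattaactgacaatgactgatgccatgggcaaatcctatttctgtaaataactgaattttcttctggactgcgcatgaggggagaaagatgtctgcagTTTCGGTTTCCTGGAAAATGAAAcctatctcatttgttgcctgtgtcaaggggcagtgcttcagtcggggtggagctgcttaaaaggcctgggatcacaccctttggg
IFI44L: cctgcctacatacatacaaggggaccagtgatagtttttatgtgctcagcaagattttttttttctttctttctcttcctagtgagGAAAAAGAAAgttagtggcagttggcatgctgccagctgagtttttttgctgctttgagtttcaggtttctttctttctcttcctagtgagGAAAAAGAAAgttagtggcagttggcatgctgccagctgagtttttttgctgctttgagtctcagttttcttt
UBE2L6: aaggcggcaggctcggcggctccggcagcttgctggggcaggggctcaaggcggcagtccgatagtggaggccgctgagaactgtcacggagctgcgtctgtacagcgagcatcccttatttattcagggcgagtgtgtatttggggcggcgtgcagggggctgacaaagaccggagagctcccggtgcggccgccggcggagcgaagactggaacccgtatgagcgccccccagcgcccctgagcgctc
ISG15 carries a pair of overlapping matches in 1 block, IFIT1 and IFIT3 each have 2 matches on the opposite strand, and in IFI44L the match appears in each copy of a repeated stretch. In IFI27 the TTCNNNGAA match joins the ISRE core matches on either side of it. The IFI27 window lies inside the annotated span of the gene, which begins at 94105894, so its start is not the first base of that span. The UBE2L6 window holds no match to these letters. Over the 300-base windows (250 before and 50 after the start) of the 29 genes matched by symbol, 19 (65.5%) held the ISRE core, against 996 of 27305 windows in the table (3.65%). TTCNNNGAA was found in 8 of the 29 (27.6%), against 2152 windows (7.88%). Among the 8 were IRF1, IRF9, OAS1 and IFI35, which held no match to the ISRE letters above. OAS1 and IFI35 hold GAAA, 1 base and GAAA again, a spacing that was not searched for. IRF7, IFIT2, OAS2, OASL, USP18 and TRIM22 have no entry in that table.

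Levels per length separated a few abundant genes from many scarce ones. In unheated R-37 cells the highest were OAS1 and OAS3, synthases of the 2-5A that activates RNase L, at 28.0 ± 1.21 and 24.3 ± 1.09 FPKM (SD, n = 5), followed by ISG15, the ubiquitin-like modifier, at 16.6 ± 3.78 and IFI35 at 13.4 ± 2.25. The means of OAS3 and OAS1 differed by more than their SD, and those of ISG15 and IFI35 did not. In R-47 the means of ISG15 and OAS1 did not differ beyond their SD, and the order at the top was ISG15 at 29.6 ± 2.49, OAS1 at 29.04 ± 0.800, OAS3 at 26.4 ± 1.27 and IFI35 at 22.6 ± 1.10. In NC it was IFI27, a mitochondrial and nuclear membrane protein, at 75.6 ± 11.6, ISG15 at 57.7 ± 10.2 and OAS3 at 36.1 ± 1.25, and in NFS1 IFI27 and ISG15 overlapped at 57.9 ± 13.0 and 51.0 ± 14.3 FPKM.

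At the other end, 12 of the 35 genes averaged under 1 FPKM in R-37, 11 in R-47 and 9 in each of NC and NFS1. TRIM22, XAF1, HERC5, MX1, IFIT1, IFIT2, BST2 and IFI44L averaged under 1 FPKM in all 4 groups. TRIM22, an antiviral ubiquitin ligase, had 1, 7, 1 and 8 counts in the 5 libraries together of R-37, R-47, NC and NFS1, and XAF1, a pro-apoptotic factor, had 48, 79, 9 and 12. Summed over the 35 genes, the level was 145 to 153 FPKM per library for R-37 against 179.8 to 200.4 for R-47, and 269 to 330.5 for NC against 261 to 326 for NFS1. The range of R-47 did not overlap that of R-37, and the ranges of NC and NFS1 overlapped. These sums rest mostly on ISG15, OAS1, OAS3, IFI35 and, in the second experiment, IFI27. In bulk libraries a change in RNA per cell and a change in the number of expressing cells cannot be told apart.

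**Figure D1:**
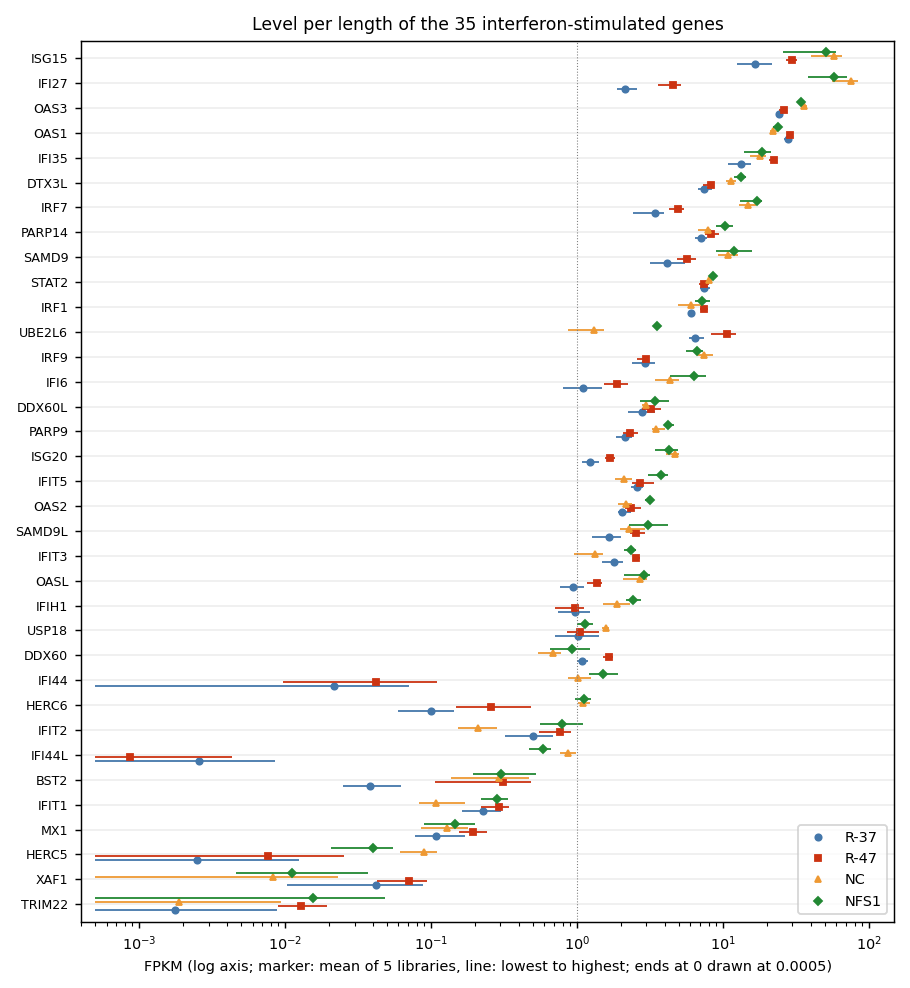
Level per length of each of the 35 genes (FPKM, log axis) in R-37, R-47, NC and NFS1, with markers at the mean of 5 libraries and lines from the lowest to the highest library. ISG15, OAS1, OAS3 and IFI35 are high in all 4 groups, IFI27 is low in R-37 and R-47 and high in NC and NFS1, and TRIM22, XAF1 and HERC5 lie near the bottom.

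Heating of wild-type cells was followed 24 hours later by higher levels of ISG15, its conjugating enzyme UBE2L6, the ligase HERC6, IRF7 and several effectors, while STAT2, IRF9 and most OAS and IFIT genes did not pass the test. Of the 30 genes tested in R-47 against R-37, 15 rose and none fell at a Benjamini-Hochberg adjusted p under 0.05 in edgeR's quasi-likelihood test. Across all 14344 genes tested, 11.9% were called higher and 13.2% lower. The median log2 fold change of the 30 genes was 0.37, against -0.0076 over all genes tested. HERC5, BST2, TRIM22, IFI44 and IFI44L had too few counts to be tested. When libraries were scaled by their total count alone, all genes split into 2976 higher and 1014 lower and the 30 genes into 17 and 0. Changes across all genes followed transcript GC content in this comparison (Spearman's rho 0.38), and with per-library offsets for GC content and length, an alternative added after the data were seen, 19 of the 30 were called higher and none lower.

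Changes are given throughout as log2 fold changes, the first group named over the second. Among the signalling factors, IRF7 and IRF1 rose and STAT2 and IRF9 did not pass the test. IRF7, which drives later interferon production, stood at 9.18, 5.58, 9.15, 9.10 and 6.53 CPM in R-37 replicates 1 to 5 and at 9.85, 9.29, 11.8, 11.7 and 11.1 in R-47. Every R-47 library lay above every R-37 library, with a log2 fold change of 0.46 (SE 0.13, edgeR adjusted p = 0.021). IRF1, the factor raised by interferon gamma, measured 24.2, 23.5, 25.7, 24.1 and 25.1 CPM in R-37 and 26.5, 29.5, 30.1, 27.4 and 27.5 in R-47, again without overlap, and rose by 0.21 (SE 0.060, edgeR adjusted p = 0.016). In 1 fit of all 20 libraries IRF1 did not pass (adjusted p 0.058). STAT2 measured 41.5, 47.5, 42.8, 41.0 and 42.1 CPM in R-37 and 37.8, 41.5, 40.9, 39.1 and 43.7 in R-47. Its R-37 replicate 2 was the highest of the 10 libraries, the groups overlapped and the log2 fold change was -0.071 (SE 0.059, edgeR adjusted p = 0.40). IRF9, the DNA-binding part of ISGF3, gave 5.83, 5.27, 6.60, 6.93 and 4.77 CPM against 5.61, 5.86, 5.86, 4.81 and 5.79, also overlapping, at -0.061 (SE 0.12, edgeR adjusted p = 0.73). Both values turned slightly above 0 with total-count scaling and in the authors' FPKM. The IRF7 call did not pass without R-47 replicate 3 or 4 (adjusted p 0.0534 to 0.0563), and without R-37 replicates 2 and 5 together, chosen for leaving out after the data were seen, its log2 fold change was 0.25 (adjusted p 0.065). R-37 replicates 2 and 5 had negative trends on GC content (Spearman's rho -0.33 and -0.63), the other R-37 libraries positive ones. In R-37, replicates 2 and 5 held the lowest IRF7, ISG15 and IFI35, transcripts of 66.8%, 63.4% and 58.8% GC. The part of GC content in these low values was not tested.

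The ISG15 system showed 3 of its 4 tested genes higher. ISG15 was measured at 15.9, 9.66, 13.3, 11.9 and 8.95 CPM in R-37 and 18.3, 19.99, 18.5, 21.6 and 21.5 in R-47. The highest R-37 library, replicate 1, lay below the lowest R-47 library, and the log2 fold change was 0.75 (SE 0.13, edgeR adjusted p = 5.2e-04). UBE2L6, the E2 enzyme that passes ISG15 to its targets, gave 9.83, 8.70, 9.78, 10.9 and 8.61 CPM in R-37 and 11.4, 17.2, 13.4, 14.9 and 16.7 in R-47. It too did not overlap and rose by 0.63 (SE 0.11, edgeR adjusted p = 6.2e-04). HERC6, a HECT-type relative of the human ISG15 ligase HERC5, gave 0.353, 0.680, 0.658, 0.280 and 0.377 CPM and then 0.657, 2.14, 1.04, 0.732 and 1.13, with R-47 replicate 1 inside the R-37 range and replicate 2 far above it, at a log2 fold change of 1.27 (SE 0.36, edgeR adjusted p = 0.018). Without R-47 replicate 2 the value was 0.91 and did not pass (adjusted p 0.064). HERC5 and HERC6 are both overlapped by the span of LOC102723458 in the annotation. Exons were not compared and the strand setting is unknown, so whether reads of these genes could be mixed was not settled. HERC5 itself had 2 counts in all R-37 libraries and 6 in all R-47 libraries. USP18, the protease that removes ISG15 and dampens the receptor, was at 2.54 ± 0.742 and 2.48 ± 0.526 CPM (SD, n = 5) and did not pass the test (adjusted p = 0.94).

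Of the RNA-directed proteins, DDX60, a helicase cofactor of RIG-I-like receptors, rose from 12.0, 13.6, 11.5, 11.4 and 13.3 CPM in R-37 to 16.3, 16.5, 17.9, 18.9 and 19.0 in R-47. The 2 groups did not overlap and the log2 fold change was 0.53 (SE 0.077, edgeR adjusted p = 1.8e-04). IFIH1 (MDA5, a sensor of long double-stranded RNA) and DDX60L did not pass, with log2 fold changes of -0.083 and 0.14. In the IFIT family, which binds viral RNA ends, IFIT3 gave 5.62, 4.33, 5.26, 5.21 and 6.03 CPM in R-37 and 6.87, 7.01, 7.39, 6.70 and 7.46 in R-47 without overlap, at 0.43 (SE 0.10, edgeR adjusted p = 0.0060). IFIT2 had a log2 fold change of 0.53 with an edgeR adjusted p of 0.066, IFIT1 of 0.30 and IFIT5 of -0.0098, and none of these passed. OASL, the family member without synthase activity, gave 5.80, 5.07, 4.06, 3.92 and 5.25 CPM in R-37 and 6.18, 6.76, 7.12, 5.63 and 7.19 in R-47. It was the OAS gene that passed, with overlap, at 0.46 (SE 0.12, edgeR adjusted p = 0.014), while OAS1, OAS2 and OAS3 had log2 fold changes of -0.022, 0.12 and 0.045. PARP9, PARP14 and DTX3L, which act together in ADP-ribosylation and ubiquitination, did not pass, with log2 fold changes of 0.042 to 0.15.

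The remaining effectors gave 4 rises among 5 tested genes, XAF1 being the fifth at 0.63 (SE 0.43, edgeR adjusted p = 0.30). SAMD9L, which restrains translation, was at 10.3, 16.3, 11.2, 14.1 and 15.05 CPM in R-37 and 17.7, 19.4, 18.7, 21.9 and 18.6 in R-47, without overlap, and rose by 0.54 (SE 0.11, edgeR adjusted p = 0.0025). The exonuclease ISG20 gave 4.97, 4.62, 6.03, 5.21 and 5.31 CPM in R-37 and 6.21, 7.26, 6.57, 6.92 and 6.54 in R-47, also apart, and rose by 0.37 (SE 0.10, edgeR adjusted p = 0.013). SAMD9, the neighbour of SAMD9L, rose by 0.37 on the log2 scale, with overlap. MX1, the dynamin-like GTPase that blocks influenza virus, was scarce, at 0.618, 1.13, 0.515, 0.525 and 0.785 CPM in R-37 and 1.23, 1.21, 1.15, 1.49 and 0.955 in R-47, where R-37 replicate 2 lay inside the R-47 range. The log2 fold change of MX1 was 0.76 (SE 0.26, edgeR adjusted p = 0.041), and the call was lost when any 1 of R-47 replicates 1 to 4 or R-37 replicates 1, 3, 4 and 5 was left out (adjusted p 0.0501 to 0.0999). The SAMD9 call was lost without any 1 of R-47 replicates 1, 4 and 5 or R-37 replicates 3 and 4 (adjusted p 0.0568 to 0.0837), and in the fit of all 20 libraries (adjusted p 0.063). Without R-37 replicates 2 and 5 together, SAMD9 rose by 0.57 and MX1 by 1.14. BST2 (tetherin, which holds budding virions) had 7 counts over the R-37 libraries and 59 over the R-47 libraries, a ratio of depth-scaled counts of 8.30 (95% exact interval 3.79 to 21.5, counting error only), and every R-47 library lay above every R-37 library.

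All 3 tested members of the IFI group rose. IFI27 gave 1.59, 2.15, 1.92, 1.64 and 1.73 CPM in R-37 and 2.85, 3.83, 4.09, 3.21 and 4.03 in R-47, with no overlap and a log2 fold change of 1.00 (SE 0.15, edgeR adjusted p = 2.7e-04). IFI35, a binding partner of the N-myc and STAT interactor NMI, gave 25.0, 17.2, 24.8, 21.2 and 17.8 CPM and 30.9, 34.1, 35.2, 34.4 and 33.7, again apart, at 0.68 (SE 0.10, edgeR adjusted p = 1.6e-04). IFI6, a survival factor of the endoplasmic reticulum and mitochondria, measured 1.62, 0.878, 1.26, 0.875 and 1.29 CPM in R-37 and 1.72, 2.28, 2.02, 1.55 and 2.000 in R-47. R-37 replicate 1 lay just above R-47 replicate 4, and the log2 fold change was 0.70 (SE 0.21, edgeR adjusted p = 0.023). That call was lost without R-47 replicate 2 or 5 or R-37 replicate 2 or 4 (adjusted p 0.0508 to 0.0630), or without R-37 replicates 2 and 5 together. IFI44 and IFI44L had 10 and 3 counts over the R-37 libraries and 21 and 1 over the R-47 libraries. Beside these rises, the summed leukocyte markers were higher in R-47 than in R-37 (values above). Of the 10 measured markers 3 were tested and 2 called higher, CD79A and ITGAM, while PTPRC was near 0 and CD3E was at 0 in every R-47 library. The part of such transcripts in the heat result was not tested.

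**Figure D2:**
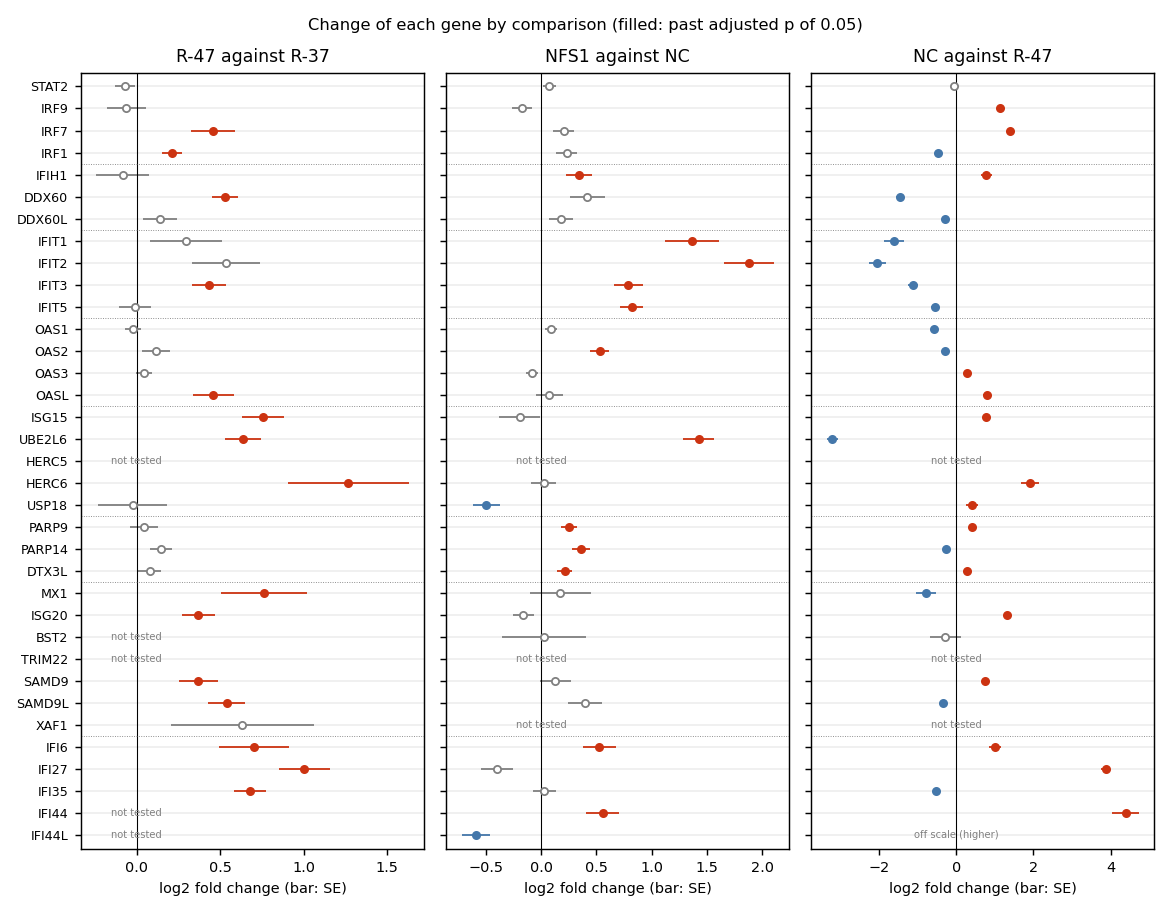
Log2 fold change of each gene with its SE in 3 comparisons (heating, knockdown label, experiment), grouped by role, with filled markers for genes past the test and red for higher, blue for lower. The heat panel holds 15 red and no blue markers, the 4 IFIT genes are red in the knockdown panel and blue in the panel of NC against R-47, where IFI44L lies off the scale.

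Within heated cells, the libraries labelled as knockdown had higher levels of all 4 IFIT genes, UBE2L6, OAS2 and the PARP9, PARP14 and DTX3L trio than NC, while ISG15, STAT2, IRF9 and MX1 did not pass the test. Of the 32 genes tested in NFS1 against NC, 12 rose and 2 fell. Over all 15086 genes tested, 15.7% were called higher and 12.5% lower. The median log2 fold change was 0.19 over the 32 genes and 0.017 over all. HERC5, TRIM22 and XAF1 were not tested. Fibroblast markers summed to 8.10 to 10.04 FPKM in NC and 12.6 to 21.95 in NFS1, where LUM alone of 4 tested was called higher, the epithelial keratins KRT8 and KRT18 were lower (CDH1 was not called), and of 10 hepatocyte markers tested 1 was higher and 4 lower. The part of these markers in the result was not tested. The heat shock gene HSPA6 was also higher in NFS1 than in NC, at 2.82 (SE 0.65, edgeR adjusted p = 0.0054). Its part was not tested either. Leaving out NFS1 replicate 2, a library of high HSPA6, left 8 of the genes called higher, and leaving out NFS1 replicate 1 or NFS1 replicate 4 gave 4 called lower, HERC5 and IFI27 joining USP18 and IFI44L. Without NFS1 replicates 2 and 3 together, 8 were higher and 1, IFI44L, was lower.

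IFIT2 had the widest change of the 32 genes, and all 4 IFIT genes rose. IFIT2 was at 0.525, 0.486, 0.741, 0.679 and 0.886 CPM in NC and 1.76, 3.32, 2.53, 1.98 and 2.44 in NFS1, a log2 fold change of 1.88 (SE 0.23, edgeR adjusted p = 3.7e-05). IFIT1 gave 0.367, 0.384, 0.511, 0.729 and 0.354 CPM in NC and 1.30, 0.911, 1.25, 1.45 and 1.08 in NFS1, a change of 1.37 (SE 0.25, edgeR adjusted p = 9.6e-04). For both genes the lowest NFS1 library lay above the highest NC library. IFIT3 measured 2.34, 3.25, 3.68, 3.37 and 3.59 CPM against 5.06, 5.81, 5.69, 6.08 and 4.98, at 0.79 (SE 0.13, edgeR adjusted p = 4.8e-04), and IFIT5 measured 9.06, 7.95, 6.80, 7.90 and 7.67 against 11.5, 14.5, 13.5, 15.6 and 13.4, at 0.82 (SE 0.10, edgeR adjusted p = 5.1e-05). Neither gene overlapped between the groups. In the first experiment the 4 genes had stood, as group means of CPM, at 1.45 (IFIT1), 2.75 (IFIT2), 7.09 (IFIT3) and 11.5 (IFIT5) in R-47, so that NC held the lowest mean of the 4 groups for each of them.

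The IFIT genes lie together on chromosome 10, between 89302046 and 89420997 (GRCh38), and other genes of that chromosome moved in the same direction. Of 564 other chromosome 10 genes tested in NFS1 against NC, 66.0% were called higher and 1.95% lower, with a median log2 fold change of 0.48. Among the 20 other genes tested within 2 Mb of the cluster, 14 were higher and 0 lower, with a median of 0.64, against 1.09 for the IFIT genes. In NC against R-47 the direction was the opposite: 57.8% of 569 genes of the chromosome were lower, with a median of -0.45, against -1.36 for the IFIT genes. In R-47 against R-37 the chromosome's median was -0.033. IFIT1, IFIT2 and IFIT3 also lie within the annotated span of LIPA, whose log2 fold change in NFS1 against NC was 0.72, and IFIT5 meets only its end. Only whole gene spans were compared, not exons, and no source used here gives the strand setting of the counting. Whether reads of the first 3 and of LIPA could be mixed was therefore not settled. The part of the chromosome in the IFIT result was not tested.

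**Figure D3:**
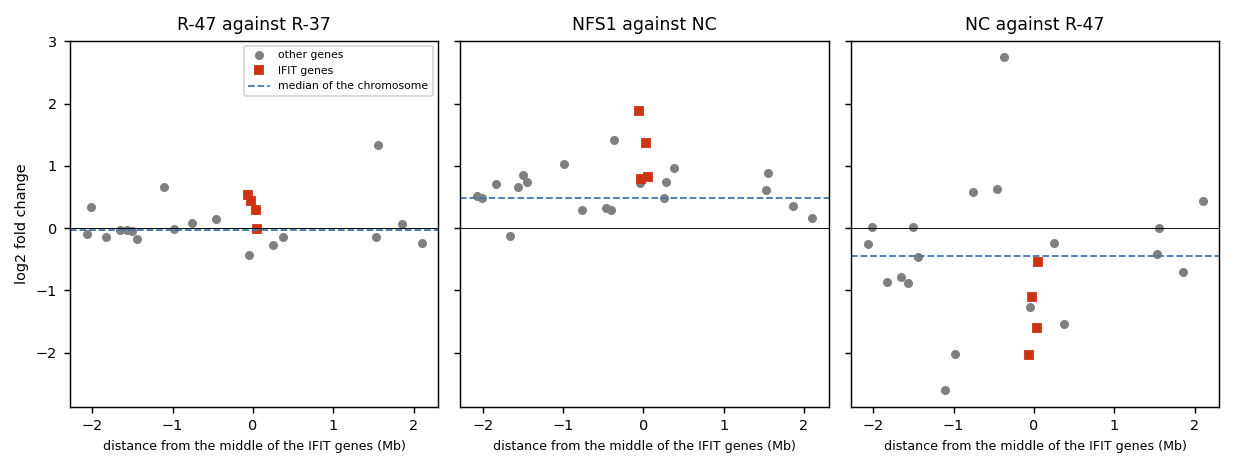
Log2 fold change of the IFIT genes (red squares) and of the other tested genes within 2 Mb (grey points), by distance from the middle of the IFIT cluster in Mb, with the median of the chromosome as a dashed line. In NFS1 against NC most neighbours and the dashed line (0.48) lie above 0 with the IFIT genes above the line, IFIT1 and IFIT2 widest of the 4, in NC against R-47 the line lies at -0.45, and in R-47 against R-37 it lies near 0.

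In the ISG15 system, UBE2L6 rose and ISG15 did not pass the test. UBE2L6 was at 1.50, 1.07, 1.74, 1.74 and 1.85 CPM in NC and 4.25, 4.09, 3.98, 4.30 and 4.28 in NFS1. The 5 NFS1 libraries lay within a narrow band above all NC libraries, and the log2 fold change was 1.42 (SE 0.14, edgeR adjusted p = 9.4e-06). The 19 other genes tested within 2 Mb of UBE2L6, on chromosome 11, had a median of -0.16 in this comparison, with none called higher. ISG15 measured 23.96, 34.99, 38.6, 36.4 and 36.3 CPM in NC and 35.1, 32.5, 29.6, 15.1 and 34.3 in NFS1. NC replicate 1 and NFS1 replicate 4 were well below the rest of their groups, the remaining libraries met at 34.99 and 35.1 CPM, and the log2 fold change was -0.19 (SE 0.19, edgeR adjusted p = 0.47). Both libraries had the most negative trend on GC content in their groups (Spearman's rho -0.45 and -0.69). The ISG15 transcript has 63.4% GC, and the part of GC content in these low values was not tested. USP18 fell, from 3.25 ± 0.156 to 2.27 ± 0.249 CPM (SD, n = 5), without overlap of the libraries, at -0.50 (SE 0.12, edgeR adjusted p = 0.0071). Without NFS1 replicates 2 and 3 together that call did not pass (adjusted p 0.058). HERC6 had a log2 fold change of 0.024, and HERC5 had 66 counts over the NC libraries and 29 over the NFS1 libraries, each NFS1 library below each NC library.

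None of the 4 signalling factors passed. IRF7 was measured at 25.8, 25.1, 30.1, 28.3 and 31.7 CPM in NC and 34.4, 33.3, 32.7, 24.8 and 34.96 in NFS1, where replicate 4 stood below every NC library and the other 4 above, at 0.21 (SE 0.10, edgeR adjusted p = 0.13). IRF1 gave 16.6, 19.3, 20.6, 21.2 and 23.2 CPM and 22.3, 25.0, 25.8, 21.0 and 22.5, with overlap, at 0.23 (SE 0.093, edgeR adjusted p = 0.079). Without NFS1 replicate 4, both were called higher, IRF7 at 0.28 (edgeR adjusted p = 0.0041) and IRF1 at 0.27 (edgeR adjusted p = 0.024), and with GC and length offsets they were 0.33 and 0.28, also past the test. IRF1 was also called higher without NC replicate 5 (edgeR adjusted p = 0.047). STAT2 measured 40.4, 37.7, 37.8, 37.5 and 40.2 CPM in NC and 41.0, 38.0, 41.1, 41.1 and 40.0 in NFS1, a spread of under 4 CPM over all 10 libraries, at 0.076 (SE 0.055, edgeR adjusted p = 0.33). IRF9 measured 11.1, 12.1, 12.5, 11.4 and 13.9 CPM in NC and 12.0, 11.3, 9.89, 9.08 and 11.05 in NFS1, overlapping, at -0.17 (SE 0.094, edgeR adjusted p = 0.19). The other tested genes of chromosome 14, which carries IRF9, had a median of -0.18 in this comparison.

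OAS2 was the OAS gene that rose, from 11.1, 13.7, 13.3, 10.8 and 12.6 CPM in NC to 17.9, 16.2, 16.0, 19.0 and 18.3 in NFS1, apart in all libraries, at 0.53 (SE 0.086, edgeR adjusted p = 4.4e-04). OAS1, OAS3 and OASL had log2 fold changes of 0.090, -0.080 and 0.075 and did not pass. PARP14 rose by 0.36, PARP9 by 0.25 and DTX3L by 0.21 on the log2 scale, and IFIH1 rose by 0.34. PARP9 and DTX3L overlap each other in the annotation. The smaller of these calls depended on single libraries: IFIH1 did not pass without NFS1 replicate 2 or 5 or NC replicate 2, 3 or 4 (adjusted p 0.0702 to 0.121) or in the fit of all 20 libraries (adjusted p 0.067), DTX3L without NFS1 replicate 2 or 3 or NC replicate 1, 2 or 3 (adjusted p 0.0607 to 0.0870), and PARP9 without NFS1 replicate 2 or NC replicate 2 or 3 (adjusted p 0.0501 to 0.0676). With offsets for GC content and length the log2 fold change of PARP9 was 0.12 (adjusted p 0.13) and that of DTX3L 0.13 (adjusted p 0.065). Across all genes the changes in this comparison ran against GC content (Spearman's rho -0.22).

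The adjacent genes IFI44 and IFI44L on chromosome 1 went opposite ways. IFI44 gave 2.62, 2.15, 2.48, 2.99 and 2.28 CPM in NC and 3.77, 3.47, 3.38, 4.61 and 2.92 in NFS1, with 1 NFS1 library inside the NC range, and rose by 0.56 (SE 0.15, edgeR adjusted p = 0.011), a call lost in 1 fit of all 20 libraries (adjusted p 0.13). IFI44L gave 5.46, 5.27, 4.16, 4.50 and 4.38 CPM and 2.54, 2.90, 3.46, 3.56 and 3.10, with the whole NFS1 range below that of NC, a log2 fold change of -0.59 (SE 0.13, edgeR adjusted p = 0.0039). IFI6 measured 3.07, 4.50, 4.32, 3.62 and 3.67 CPM in NC and 5.24, 6.52, 5.86, 3.82 and 5.76 in NFS1, where replicate 4 alone overlapped NC, and rose by 0.53 (SE 0.15, edgeR adjusted p = 0.018). Without NFS1 replicate 2 the IFI6 value was 0.44 and did not pass (adjusted p 0.057). IFI27 was at 39.0, 57.0, 58.5, 51.5 and 55.2 CPM in NC and 48.7, 33.7, 41.9, 26.3 and 44.5 in NFS1, with NC replicate 1 below its group, at -0.40 (SE 0.15, edgeR adjusted p = 0.054). Without NFS1 replicate 1 it was called lower at -0.50 (edgeR adjusted p = 0.022), and without NFS1 replicate 4 at -0.29 (edgeR adjusted p = 0.041). On chromosome 14, which carries IFI27 and IRF9, 33.2% of the other tested genes were lower in this comparison, with a median of -0.18. IFI35 was at 23.4 ± 2.11 and 23.5 ± 3.54 CPM (SD, n = 5). None of MX1, ISG20, BST2, SAMD9 and SAMD9L passed: the log2 fold changes were 0.18 for MX1, -0.16 for ISG20, 0.028 for BST2, 0.13 for SAMD9 and 0.40 for SAMD9L.

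**Figure D4:**
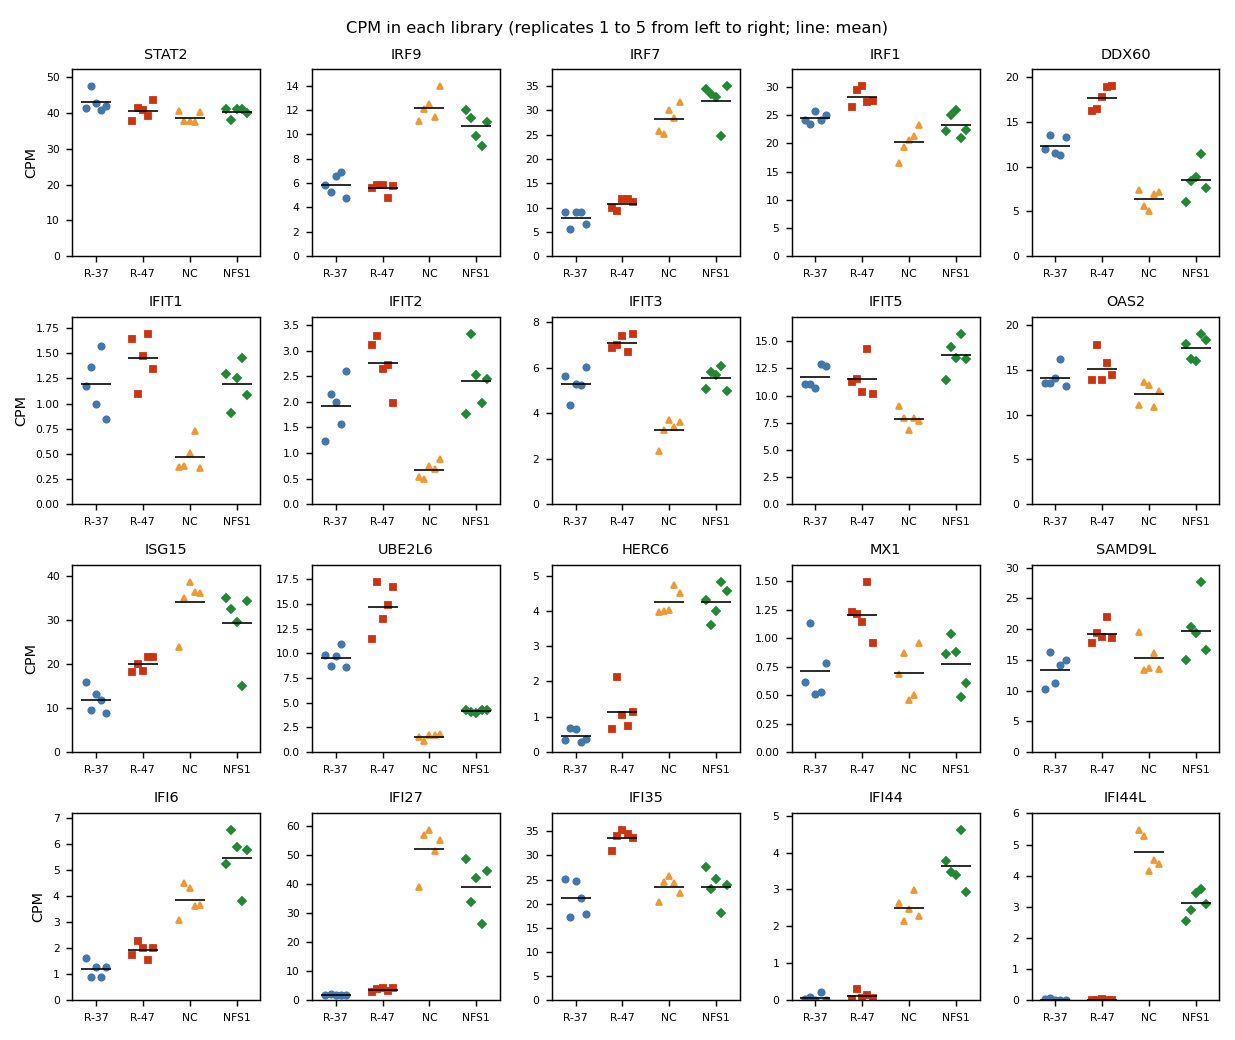
CPM of 20 genes in each library of R-37, R-47, NC and NFS1 (replicates 1 to 5 from left to right, line at the mean, axes from 0). IFIT1, IFIT2, IFIT3, IFIT5 and UBE2L6 are lowest in NC, IFI27, IFI44 and IFI44L are high only in the panels' NC and NFS1 columns, and ISG15 has 1 low library in each of NC and NFS1.

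NC and R-47 carry the same labels of genotype, temperature and time, yet most of the genes differed between them. Of 32 genes tested in NC against R-47, 16 were higher and 14 lower, and over all 15080 genes tested 40.1% were higher and 39.6% lower, so that this comparison called most genes of the table. STAT2 and BST2 did not pass. The heat shock gene HSPA6 was higher in every NC library than in every R-47 library (values above), and its part in these differences was not tested. Nor was that of the cell type markers that moved with them: 4 of 4 tested fibroblast markers were higher in NC (median 1.69, PDGFRB not tested) and 4 of 4 epithelial markers lower (median -1.11), with CDH1 at 3.58 FPKM in R-47 and 0.877 in NC. Fibroblast markers summed to 5.96 to 7.09 FPKM in R-47 and 8.10 to 10.04 in NC, and of the hepatocyte markers 4 of 10 tested were higher and 4 lower. With total-count scaling, which moved the median of all genes from 0.011 to 0.19, 17 of the 32 were higher and 10 lower and all genes split into 7465 higher and 4741 lower. In the authors' FPKM with genes of mean FPKM of at least 1, 14 were higher and 7 lower. DDX60L, OAS2, PARP14 and SAMD9L lost their lower call under both, and STAT2 was called higher (0.13, edgeR adjusted p = 0.035 with total-count scaling). The experiment and any difference in the cells, the construct or the handling cannot be told apart here.

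The widest differences were in the IFI group. IFI44L had 1 count over the 5 R-47 libraries and 929 over the NC libraries, a ratio of depth-scaled counts of 965 with a 95% exact counting interval of 173 to 38171. IFI44 had 21 counts against 490, a ratio of 24.2 (15.7 to 39.5), and IFI44 in R-47 was at 0.0274, 0.310, 0.0545, 0.141 and 0.0597 CPM. IFI27 was higher in NC by 3.87 (SE 0.11, edgeR adjusted p = 5.4e-18) and HERC6 by 1.91 (SE 0.23, edgeR adjusted p = 9.4e-08), both without overlap. HERC6 measured 3.96, 3.99, 4.04, 4.73 and 4.51 CPM in NC. Of the 495 other genes tested on chromosome 14, which carries IFI27 and IRF9, 72.5% were higher in NC, with a median of 0.57. The part of the chromosome in the IFI27 and IRF9 changes was not tested. IRF7 (1.40), ISG20 (1.31), IRF9 (1.14), IFI6 (1.02) and ISG15 (0.78) were also higher in NC on the log2 scale, and IRF1 was lower (-0.47). IFIH1 (0.78), SAMD9 (0.76), OASL (0.80), PARP9 (0.42), USP18 (0.40), DTX3L (0.28) and OAS3 (0.27) were higher as well, and the USP18 call was lost without R-47 replicate 1 or 5 (adjusted p 0.0621 to 0.0671). Chromosome 3 carries PARP9, DTX3L and PARP14. Of its 855 other tested genes 60% were higher and 24.2% lower, with a median of 0.38. The part of that chromosome was not tested. HERC5 had 6 counts in R-47 and 66 in NC, a ratio of 11.4 (4.98 to 32.3).

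Lower in NC were UBE2L6, at -3.20 (SE 0.14, edgeR adjusted p = 4.9e-15), and DDX60, at -1.45 (SE 0.10, edgeR adjusted p = 1.0e-11), each without overlap. DDX60 gave 7.43, 5.63, 5.06, 6.94 and 7.14 CPM in NC. The 20 other genes tested within 2 Mb of UBE2L6 had a median of -1.39, and 17 of them were lower, while chromosome 11 as a whole had a median of 0.11. IFIT2 had a change of -2.03 (SE 0.22, edgeR adjusted p = 1.7e-08) and IFIT1 of -1.61 (SE 0.26, edgeR adjusted p = 7.1e-06), beside the chromosome 10 values given above. For IFIT2 in R-37 the libraries gave 1.24, 2.15, 2.001, 1.57 and 2.61 CPM and in R-47 3.12, 3.29, 2.65, 2.73 and 1.97. Those of IFIT1 were 1.18, 1.36, 1.001, 1.57 and 0.848 in R-37 and 1.64, 1.10, 1.47, 1.69 and 1.34 in R-47, so all libraries of the first experiment lay above all NC libraries for both genes. IFIT5 gave 11.1, 11.1, 10.7, 12.9 and 12.8 CPM in R-37 and 11.2, 11.5, 10.4, 14.3 and 10.2 in R-47, again above NC. OAS2, at 13.6, 13.5, 14.1, 16.2 and 13.2 in R-37 and 13.8, 17.8, 13.9, 15.8 and 14.4 in R-47, lay above NC in every R-47 library and overlapped it in R-37. The other lower genes were IFIT3 (-1.11), MX1 (-0.78), OAS1 (-0.57), IFI35 (-0.51), SAMD9L (-0.33) and PARP14 (-0.25). The 28 other genes tested within 2 Mb of OAS1, OAS2 and OAS3, on chromosome 12, had a median of -0.40. Of these, 3 were higher and 19 lower, and chromosome 12 as a whole had a median of -0.20. OAS2 had a change of -0.29, while OAS3 was higher. The part of these neighbours was not tested. XAF1 had 79 counts in R-47 and 9 in NC and was not tested.

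Whether the change in NFS1 against NC differed from the change in R-47 against R-37 was tested for each gene in 1 fit of all 20 libraries. Of 33 genes tested, 5 (15.2%) had a higher change in the knockdown comparison, 6 (18.2%) a lower one, and the other 22 did not pass. These shares lay near the 17.2% and 15.3% called over all 15822 genes. The 5 were IFIT1 (difference 1.06 on the log2 scale), IFIT2 (1.33), IFIT5 (0.82), UBE2L6 (0.78) and OAS2 (0.40). For IFIT3 the difference was 0.34 (SE 0.16, edgeR adjusted p = 0.11) and did not pass. Of the 6 with a lower change, ISG15 had a difference of -0.96 (SE 0.25, edgeR adjusted p = 0.0049), and the others were IFI27 (-1.41), HERC6 (-1.25), IFI35 (-0.66) and ISG20 (-0.54). BST2, at -2.86, rests on 7 counts in R-37. IRF7 (-0.26, adjusted p = 0.25) and IRF1 (0.0023, adjusted p = 0.99) did not pass in edgeR's test. All 11 were called without any 1 of the 20 libraries. With GC and length offsets 10 genes had a lower change, DDX60, DDX60L, SAMD9 and SAMD9L being added.

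**Figure D5:**
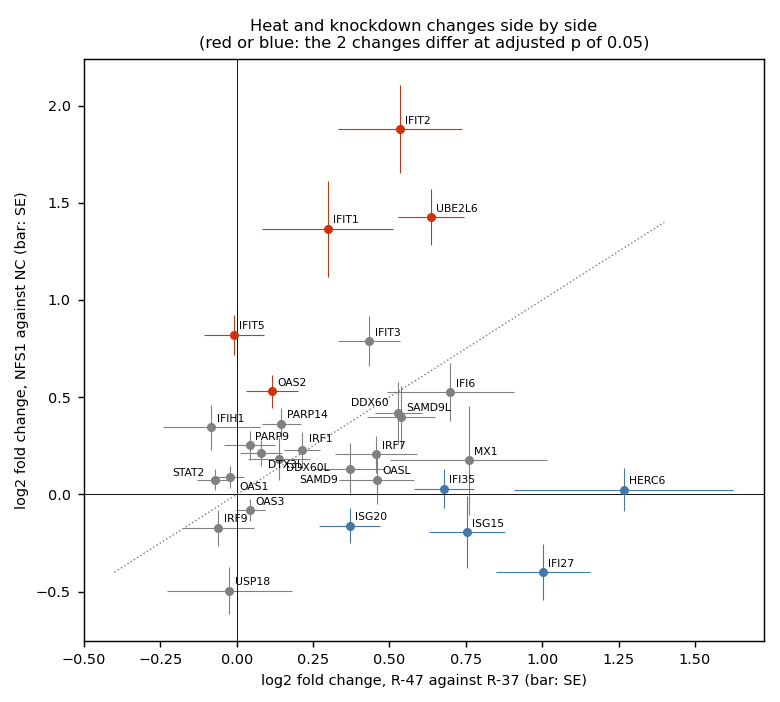
Log2 fold change with SE in R-47 against R-37 (horizontal) and in NFS1 against NC (vertical) for the 29 genes tested in both, with the dotted line where both are equal and colours for genes whose 2 changes differ in the test over 20 libraries. IFIT1, IFIT2, IFIT5, OAS2 and UBE2L6 lie above the line in red, and ISG15, ISG20, HERC6, IFI27 and IFI35 lie below it in blue.

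The 3 interferon ligand genes analysed were scarce in all 20 libraries. IFNB1 had 0, 5, 4 and 0 counts in all libraries of R-37, R-47, NC and NFS1, and IFNL1 had 0, 5, 0 and 0. IFNE, an epithelial type I interferon, averaged 0.196 FPKM in R-37 and 0.549 in NC. Other ligands were not analysed here. The counts of called genes in the lists that follow stand beside the shares over all genes, which were 11.9% higher and 13.2% lower in R-47 against R-37, 15.7% and 12.5% in NFS1 against NC, and 40.1% and 39.6% in NC against R-47. Of the receptors and kinases, IFNAR1 and IFNAR2, the chains of the type I receptor, averaged 6.09 and 8.46 FPKM in R-37. In R-47 against R-37, 0 of 9 tested were higher and 1 lower, IFNGR1 (a chain of the interferon gamma receptor), at -0.22 (SE 0.057, edgeR adjusted p = 0.0094), a call lost with total-count scaling and in the authors' FPKM. In NFS1 against NC, IFNGR1, at 0.34 (SE 0.091, edgeR adjusted p = 0.013), and IFNGR2 were higher and TYK2, at -0.23 (SE 0.064, edgeR adjusted p = 0.014), was lower, a call lost without NFS1 replicates 2 and 3 together. NC against R-47 gave 4 higher and 3 lower, led by IFNLR1, a receptor of interferon lambda, at 0.85 (SE 0.079, edgeR adjusted p = 1.9e-09) and IFNGR1 at -1.57 (SE 0.056, edgeR adjusted p = 1.1e-16).

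Negative regulators gave 2 of 6 higher after heating, SOCS3 (an inhibitor of JAK kinases) at 0.36 (SE 0.078, edgeR adjusted p = 0.0037) and PTPN6 at 0.39 (SE 0.082, edgeR adjusted p = 0.0027), and the phosphatases PTPN2 and PTPN11 were lower. Of 7 in NFS1 against NC, SOCS3 was higher, at 0.34 (SE 0.10, edgeR adjusted p = 0.018), a call lost without NFS1 replicate 2 or NC replicate 2. In NC against R-47, 1 of 7 was higher and 5 were lower, CISH and SOCS3 among them. Nucleic acid sensors and their partners gave 4 of 17 higher and 1 lower after heating. The 4 were DHX58 (LGP2, a RIG-I-like receptor) at 1.20 (SE 0.26, edgeR adjusted p = 0.0039), STING1, the adaptor of cytosolic DNA sensing, at 0.41 (SE 0.10, edgeR adjusted p = 0.0088), the receptor TLR3 and the adaptor MAVS, and SAMHD1 was lower. In NFS1 against NC, 1 of 16 was higher, the DNA sensor IFI16 at 0.75 (SE 0.084, edgeR adjusted p = 2.1e-05), and 4 were lower, STING1 and the RNase H2 subunits RNASEH2A, RNASEH2B and RNASEH2C, the last at -0.56 (SE 0.084, edgeR adjusted p = 2.3e-04). RIGI, the sensor of short double-stranded RNA, averaged 2.04, 2.48, 2.09 and 2.21 FPKM in R-37, R-47, NC and NFS1.

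A further list of other interferon-stimulated genes held 32 tested genes in each comparison. After heating 10 were higher and 5 lower, with a median log2 fold change of 0.072, against 0.37 for the 30 genes above. APOL1, an apolipoprotein induced by interferon gamma, rose by 0.69 (SE 0.055, edgeR adjusted p = 4.1e-07) and ZC3HAV1, the zinc finger antiviral protein, fell at -0.72 (SE 0.067, edgeR adjusted p = 2.4e-06). In NFS1 against NC 12 were higher and 1 lower, among them the ligands TNFSF10 (TRAIL), at 1.24 (SE 0.29, edgeR adjusted p = 0.0062), and LGALS9 (galectin-9), at 1.20 (SE 0.17, edgeR adjusted p = 1.6e-04). NC against R-47 gave 7 higher and 21 lower, with IFITM2, which blocks viral entry, at -3.57 (SE 0.14, edgeR adjusted p = 9.7e-16) and LGALS9 at -3.43 (SE 0.13, edgeR adjusted p = 3.1e-16). CXCL10 and CXCL11, chemokines that respond strongly to interferon, had 0 counts in R-37 and R-47 and 2 and 1 counts over the libraries of NC. Each had at least 1 count over the libraries of NFS1.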

How the data were processed

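The table of gene counts and the table of FPKM, each with 1 column for each of the 20 libraries (5 per group), were used as deposited. Per the submitters' processing notes, the authors trimmed reads with fastp, aligned them to hg38 with HISAT2 and counted reads per gene with HTSeq, so the counts are raw whole numbers per gene. Per the labels' protocols, RNA was extracted with TRIzol and libraries were made with the VAHTS Universal V6 kit. The authors' deposited FPKM were used for levels between genes. Tool versions, annotation and strand setting were not given in the sources used here.

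Samples were grouped by their titles. The columns matched the titles, with 0 columns unused and 0 identical pairs of libraries within a group. Genes were filtered with filterByExpr (minimum count 10, minimum total 15), scaled by TMM and tested with edgeR 4.0.16 (quasi-likelihood test, R 4.3.3) in fits of the 2 groups compared, and in 1 fit of all 20 libraries for the difference between the 2 changes. Calls used a Benjamini-Hochberg adjusted p under 0.05 over all genes tested. CPM were scaled by TMM over all 20 libraries, and SE is the size of the log2 fold change over the square root of F. Positions and promoters came from RefSeq GRCh38.p14.

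The 35 genes and the other lists were chosen with earlier results of these data known. All 35 genes are accounted for. Values in every library are given for ISG15, STAT2, IRF1, IRF7 and IRF9 and for up to 8 called genes per comparison with a mean of at least 1 CPM in a group, by size of change, and up to 2 called genes are named per other list and comparison. Values in every library of other genes, further genes that make up a count of 5 or fewer, and most single libraries named were chosen after their values were seen. Alternatives were DESeq2 1.42.0, its size factors, total-count scaling, no or a stricter count filter (50), limma 3.58.1 (voom, and log2(FPKM + 1) or log2(FPKM + 0.1) with or without a mean FPKM of at least 1), a replicate block, 1 fit of all 20 libraries for each comparison, GC and length offsets, and leaving out libraries. Intervals of ratios of counts are exact and cover counting error only. On counts simulated from these libraries, edgeR recovered 53.1% of 1.25-fold, 76% of 1.5-fold, 80% of 2-fold and 100% of 4-fold changes for R-47 against R-37. For NFS1 against NC the shares were 23.9%, 64%, 90% and 97.9%. Unchanged genes called numbered 6 for R-47 against R-37 and 3 for NFS1 against NC.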

Additional observations from a re-analysis of the deposited data

Results flagged for a closer look

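Dixon's test was run on the CPM of 20 genes in the 4 groups of 5 libraries, and 6 of 80 groups had a library whose gap to the nearest other exceeded 0.71 of the group's range, where chance gives about 1 in 20. STAT2 was highest in R-37 replicate 2, at 47.5 CPM. IRF9 was lowest in R-47 replicate 4, at 4.81 CPM. IRF7 was lowest in NFS1 replicate 4, at 24.8 CPM. ISG15 was lowest in NC replicate 1, at 24.0 CPM, and in NFS1 replicate 4, at 15.1 CPM. NC replicate 1 and NFS1 replicate 4 had the most negative trend on GC content in their groups (Spearman's rho -0.45 and -0.69). IRF7 and ISG15 were the most GC-rich of the 35 transcripts, at 66.8% and 63.4%. Flags that share a library are not independent of each other, and the part of GC content in them was not tested. IFI44L had 0.0273 CPM in R-47 replicate 3, its 1 count in that group, the other R-47 libraries being at 0. With the others at 0 the gap equals the range, so this flag was fixed by that count. It carries no weight against the rate of 1 in 20.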

How the results depend on the processing

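Of the calls in the 3 comparisons of groups and in the difference between changes, those lost with 1 library left out stand beside each gene above. Over single left-out libraries the number of genes called higher ran from 12 to 15 in R-47 against R-37 (0 lower), from 8 to 14 in NFS1 against NC (2 to 4 lower), from 16 to 17 in NC against R-47 (14 to 15 lower) and stayed at 5 in the difference between changes (6 to 7 lower). With a replicate block the counts were 14 higher after heating, 10 higher and 2 lower in NFS1 against NC, 16 and 14 in NC against R-47, and 5 and 6 in the difference, so MX1 after heating and IFIH1 and DTX3L in NFS1 against NC did not pass. The values gave no clear sign that the numbers pair the libraries: same-numbered libraries correlated by -0.066 to 0.097, -0.20 to 0.058 and -0.011 to 0.14 in the 3 comparisons, and 2, 0 and 2 of 5 correlated best with their own number.

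In 1 fit of all 20 libraries IRF1 and SAMD9 after heating and IFIH1 and IFI44 in NFS1 against NC did not pass, and IRF1 in NFS1 against NC did. In the authors' FPKM with a mean of at least 1, the count of lower genes was 1 in NFS1 against NC and 7 in NC against R-47 at either pseudocount, where 26 and 25 genes were tested, and 3 genes had a higher change in the difference, IFIT5, OAS2 and UBE2L6 (IFIT1 and IFIT2 were below the filter). With no filter the 3 were IFIT5, OAS2 and IFI44, and IFIT1, IFIT2 and UBE2L6 did not pass. Lower genes in NFS1 against NC numbered 1 without NFS1 replicates 2 and 3 together. With GC and length offsets, added after the data were seen, 10 genes had a lower change in the difference. STAT2 after heating turned from -0.071 to 0.0052 with total-count scaling and to 0.0053, 0.0060 and 0.0053 in the 3 FPKM fits. IRF9 after heating turned from -0.061 to 0.016, and to 0.016, 0.023 and 0.016, and ran from -0.12 to 0.0082 over single left-out libraries (the latter without R-37 replicate 4). STAT2 in NC against R-47 turned from -0.054 to 0.13, and to 0.11, 0.13 and 0.11, and to 0.028 with GC and length offsets. Over all genes, R-47 against R-37 gave 1714 higher and 1890 lower, against 2976 and 1014 with total-count scaling, 2524 and 839 (pseudocount 1), 2521 and 841 (0.1) and 2608 and 827 (no filter) in FPKM, and 2605 higher with GC and length offsets. NC against R-47 gave 5978 lower, against 3741 and 3734 in filtered FPKM, and NFS1 against NC 1881 lower, against 1147 without NFS1 replicates 2 and 3. Beyond the genes tested or libraries left out by construction, the cause was not tested. Genes with few counts (HERC5, TRIM22, XAF1, BST2, IFI44L in R-47) are limited by depth.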
